A study of Mus musculus with 6 samples.

Results

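Expression was followed for 9 genes of retinoic acid metabolism and signalling in day-5 mouse gastruloids: *Stra6*, *Aldh1a2*, *Dhrs3*, *Cyp26a1*, *Crabp1*, *Crabp2*, *Rara*, *Rarb* and *Rarg*. They were taken by symbol, as 9 of the 35565 Ensembl gene identifiers in the count table, and all 9 passed the filter on low counts. Gastruloids are aggregates of embryonic stem cells (ESCs) that elongate and pattern along an axis in culture, here collected 5 days after aggregation and exposed to CHIR99021, a GSK3 inhibitor that activates WNT signalling. The study compared 3 RNA-seq libraries of Control (NT) gastruloids, from cells with a non-targeting construct whose genotype the sample labels give as wild type, with 3 libraries of *T-UCstem1* KD-1 gastruloids, in which the long non-coding RNA *T-UCstem1* was silenced. Both groups come from the 129/SvP ESC line TBV2, and KD-1 is 1 knockdown clone, so that other differences between the 2 cell lines cannot be told apart from the silencing. *T-UCstem1* itself was not analysed here.

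Retinoic acid is a small lipid-soluble signal made from vitamin A. Cells take up retinol, oxidise it to retinaldehyde and then, irreversibly, to retinoic acid, which CRABP proteins carry in the cytoplasm and CYP26 enzymes degrade. In the nucleus it binds RAR receptors, which sit on DNA with RXR partners and recruit corepressors without ligand and coactivators with it. In the embryo the trunk mesoderm is a main source of retinoic acid, the signal patterns the hindbrain, spinal cord and somites, and several genes of the pathway are themselves induced by it.

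The promoters of *Rarb* and *Cyp26a1* are shown because each holds a match to the DR5 arrangement, the best known form of retinoic acid response element. A half-site was taken as AGGTCA with, as accepted variants, the hexamer AGTTCA, the hexamer GGGTCA and the hexamer GGTTCA. A match was a pair of half-sites in the same orientation, separated by 5 bases of any kind (NNNNN), on either strand of a window from 250 bases before to 50 bases after the transcription start. The windows are those of RefSeq on GRCm38.p6, written 5′ to 3′ on the strand of the gene, with the match in capitals. The *Rarb* window is chr14:16575427-16575726 on the minus strand of that build, and its match lies 53 to 37 bases before the start. The *Cyp26a1* window is chr19:37697558-37697857 on the plus strand, and its match lies on the opposite strand, 32 to 16 bases before the start.
Rarb: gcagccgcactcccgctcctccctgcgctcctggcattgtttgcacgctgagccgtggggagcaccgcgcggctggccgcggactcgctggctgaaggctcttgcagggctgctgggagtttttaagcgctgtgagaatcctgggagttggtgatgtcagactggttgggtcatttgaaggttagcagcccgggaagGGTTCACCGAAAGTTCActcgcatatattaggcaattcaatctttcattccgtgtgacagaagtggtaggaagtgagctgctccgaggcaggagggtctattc
Cyp26a1: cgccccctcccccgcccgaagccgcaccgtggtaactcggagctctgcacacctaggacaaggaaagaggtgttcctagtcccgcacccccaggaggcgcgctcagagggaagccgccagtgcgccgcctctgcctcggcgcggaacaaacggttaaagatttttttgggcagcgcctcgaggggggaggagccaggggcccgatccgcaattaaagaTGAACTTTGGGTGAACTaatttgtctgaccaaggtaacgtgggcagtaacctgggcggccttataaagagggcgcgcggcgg
Read on its own strand, with the half-sites in capitals and the spacer in lower case, the element of each gene is:
Rarb element: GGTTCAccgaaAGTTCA
Cyp26a1 element: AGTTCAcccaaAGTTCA
Of the 9 genes, 8 had a RefSeq window (17 windows in all), and *Crabp2* had none. Among all 32851 windows, 32 held a DR5 match (0.0974%). With AGGTCA as the only half-site allowed, 3 windows did, none of them of the 9 genes. Pairs of the same half-sites with a spacer of 1 base (73 windows, 0.222%) or 2 bases (88 windows, 0.268%) occurred in none of the windows of the 9 genes. A match is a string of letters and says nothing of binding in these samples.

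Of the 9 genes, 7 were lower and 1 was higher in KD-1, and *Rara* did not pass the test. Calls required an adjusted p under 0.05 in edgeR's quasi-likelihood test (Benjamini-Hochberg over 15110 genes) together with a fold change over 1.5 in either direction. By that rule 37.7% of all genes tested were called, 18.1% lower and 19.7% higher in KD-1. The median log2 fold change (KD-1 against Control) was -2.76 over the 9 genes and -0.015 over all genes tested. The ranges of the groups did not overlap for 8 of the 9 genes, as for 70.6% of all genes tested. The 9 genes were chosen with earlier results of these data known, so that these shares are descriptions. Levels are TMM-normalized CPM (counts scaled to library size), and libraries are named shallowest, middle and deepest by their total within a group.

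Bulk RNA cannot tell fewer cells of a type from less RNA per cell, and levels of listed cell type markers moved with the group. All 10 listed somite markers were lower in KD-1, with a summed level of 539 to 618 CPM in Control and 46.3 to 47.1 CPM in KD-1. Of 9 naive pluripotency markers, 7 were higher, with sums of 703 to 752 and 2039.5 to 2106 CPM. Of 8 neural markers, 7 were tested and 4 were higher (160.4 to 163 against 249.96 to 259.6 CPM). Most of the Control sum was *Nes* (115.6, 109.7 and 118.8 CPM), which went the other way. Its log2 fold change of -0.44 passed the p threshold (2.8e-04, edgeR) but not the fold threshold. Of 9 presomitic and paraxial mesoderm markers, 7 were tested and 5 were lower (51.7 to 63.9 against 40.6 to 42.1 CPM), with *Msgn1* at or under 3 counts in every library. Of 9 lateral plate and cardiac markers, 4 were tested and 3 were lower (3.40 to 4.29 against 1.19 to 1.93 CPM), with *Hand1*, *Nkx2-5* and *Osr1* at or under 3 counts. *Tbx20*, tested but not called, had a log2 fold change of 1.13. Of 8 endoderm markers only *Cer1* was tested, and it was lower (sum of the list 15.1 to 16.0 against 0.230 to 0.472 CPM), with *Afp* and *Ttr* at or under 3 counts. In Control that sum was nearly all *Cer1* (15.2, 13.9 and 14.8 CPM), so its fall describes that gene and not endoderm. *Foxa2*, not tested, had 2, 1 and 1 counts in Control and 6, 5 and 9 in KD-1. *Sox17*, not tested either, had 4, 9 and 9 against 0, 0 and 1. Of 7 fibroblast markers, 5 were tested and 4 were lower (33.8 to 37.5 against 0.864 to 1.05 CPM). The Control sum was mostly *Fap* (30.5, 25.2 and 28.2 CPM), and *Thy1*, tested but not called, had a log2 fold change of 1.59. Of the markers called lower, 5 somite, 3 presomitic and paraxial, 1 lateral plate, all 4 fibroblast markers and *Cer1* reached the count filter in Control alone, as did *Dcx* among the neural markers in KD-1 alone, so that the counts are descriptions that the filter in part sets. The part of these shifts in the results below was not tested. Library totals ran from 20982249 to 56674906 counts in Control and from 41180012 to 85561026 in KD-1.

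*Stra6* (ENSMUSG00000032327) encodes the membrane receptor through which cells take up retinol from its carrier in blood, and its own transcript is a classic retinoic acid-induced RNA. On GRCm39 it spans chr9:57970967-58063543. It was measured at 39.3, 34.1 and 37.9 CPM in the shallowest, middle and deepest Control libraries and at 0.453, 0.529 and 0.599 CPM in those of KD-1. Every KD-1 library was far below every Control library. The mean fell from 37.1 ± 2.69 to 0.527 ± 0.0728 CPM (SD, n = 3 each), 68.2-fold, a log2 fold change of -6.09 (SE 0.12, 95% interval -6.37 to -5.81, adjusted p = 8.6e-09, edgeR). The gene overlaps *Ccdc33* and, at its end, *Islr*, both on the opposite strand, and since use of strand in the counting is not stated, reads in the shared stretches cannot be assigned with certainty.

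*Aldh1a2* (ENSMUSG00000013584, GRCm39 chr9:71122630-71203527) encodes the retinaldehyde dehydrogenase that makes most retinoic acid in the early embryo, in the trunk mesoderm. The Control libraries held 39.2, 46.0 and 39.0 CPM and the KD-1 libraries 1.05, 1.82 and 1.89 CPM. The groups were far apart, although the KD-1 libraries spread more around their mean (CV 29.3%) than the Control libraries did (9.61%). The mean fell 25.4-fold, from 41.4 ± 3.98 to 1.58 ± 0.465 CPM (SD, n = 3), a log2 fold change of -4.67 (SE 0.18, adjusted p = 1.6e-07, edgeR).

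*Dhrs3* (ENSMUSG00000066026, GRCm39 chr4:144619245-144654779) encodes a reductase that turns retinaldehyde back into retinol and so limits the substrate of ALDH1A2. It was at 10.3, 11.5 and 9.76 CPM in Control and at 0.382, 0.460 and 0.530 CPM in KD-1. Every KD-1 library was below every Control library, and the KD-1 values spread more around their mean (CV 16.2%) than the Control values did (8.35%). The mean fell 22.3-fold, from 10.5 ± 0.878 to 0.457 ± 0.0740 CPM (SD, n = 3), a log2 fold change of -4.48 (SE 0.17, adjusted p = 1.6e-07, edgeR). Transcripts of both *Aldh1a2*, for 1 enzyme that makes retinoic acid, and *Dhrs3*, for 1 that removes its precursor, were lower.

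*Cyp26a1* (ENSMUSG00000024987, GRCm39 chr19:37686241-37689984) encodes a cytochrome P450 that degrades retinoic acid, and it carries the second promoter printed above. It was the least abundant of the 9 genes per CPM in Control, at 2.22, 2.61 and 2.15 CPM (46, 88 and 119 counts), and it had 0.0239, 0.207 and 0.219 CPM in KD-1 (1, 9 and 19 counts). All KD-1 libraries were lower than all Control libraries, and the shallowest KD-1 library stood apart with its single count. Exact 95% intervals for the share of the library total, which cover counting error only, were 0.000615 to 0.135, 0.0970 to 0.403 and 0.134 to 0.347 CPM in KD-1. In Control they were 1.61 to 2.92, 2.03 to 3.12 and 1.74 to 2.51. The mean fell 14.2-fold, from 2.32 ± 0.246 to 0.150 ± 0.109 CPM (SD, n = 3), a log2 fold change of -3.83 (SE 0.47, 95% interval -4.90 to -2.76, adjusted p = 1.4e-04, edgeR). It was the only one of the 9 that reached the count filter in Control alone.

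The cellular retinoic acid binding proteins went in opposite directions. *Crabp1* (ENSMUSG00000032291, GRCm39 chr9:54671171-54680403), whose product binds retinoic acid in the cytoplasm and is known for expression in neural tissue, was at 22.2, 29.96 and 23.3 CPM in Control and at 159, 148 and 143 CPM in KD-1. It was the only one of the 9 that rose, 5.95-fold, from 25.1 ± 4.21 to 149.9 ± 8.36 CPM (SD, n = 3), a log2 fold change of 2.57 (SE 0.11, adjusted p = 3.7e-07, edgeR). *Crabp2* (ENSMUSG00000004885, GRCm39 chr3:87855973-87860683), whose product delivers retinoic acid to RAR in the nucleus, was at 339, 381 and 358 CPM in Control and at 153, 160.4 and 167 CPM in KD-1. Its groups did not overlap either, and it fell 2.24-fold, from 359 ± 20.9 to 160.04 ± 6.79 CPM (SD, n = 3), a log2 fold change of -1.17 (SE 0.06, adjusted p = 1.3e-06, edgeR).

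The receptors differed among themselves. *Rarb* (ENSMUSG00000017491, GRCm39 chr14:5650540-6041094), which retinoic acid is known to induce through the DR5 element of its promoter, was at 11.7, 10.7 and 11.7 CPM in Control and at 1.53, 1.79 and 1.69 CPM in KD-1. All KD-1 libraries were close together and far below Control. It fell 6.79-fold, from 11.4 ± 0.573 to 1.67 ± 0.135 CPM (SD, n = 3), a log2 fold change of -2.76 (SE 0.13, adjusted p = 4.3e-07, edgeR). Part of it overlaps *Top2b* on the opposite strand, which had 306 and 228 CPM on average.

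*Rarg* (ENSMUSG00000001288, GRCm39 chr15:102143373-102165952), a receptor known from the caudal embryo and from stem cells, was at 16.7, 20.3 and 18.6 CPM in Control and at 8.21, 7.08 and 8.29 CPM in KD-1. The ranges were separate. It fell 2.36-fold, from 18.5 ± 1.79 to 7.86 ± 0.676 CPM (SD, n = 3), a log2 fold change of -1.24 (SE 0.11, adjusted p = 1.7e-05, edgeR). *Rara* (ENSMUSG00000037992, GRCm39 chr11:98818612-98865768), the most broadly expressed RAR, was at 10.996, 15.6 and 13.1 CPM in Control and at 14.7, 14.1 and 13.2 CPM in KD-1. Its groups overlapped, with means of 13.2 ± 2.31 and 14.001 ± 0.765 CPM (SD, n = 3). The log2 fold change of 0.07 had a 95% interval from -0.21 to 0.36 (adjusted p = 0.63, edgeR), and its sign depended on 1 library: without the shallowest Control library it was -0.034.

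**Figure D1:**
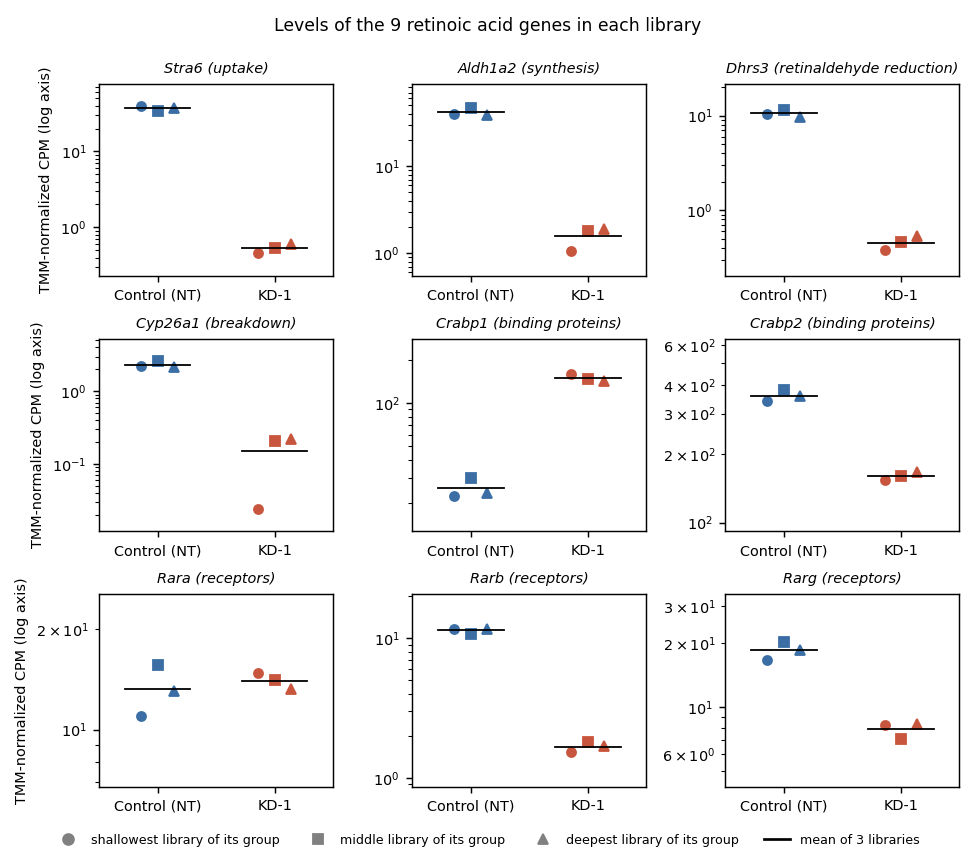
Level of each of the 9 genes in every library, in TMM-normalized CPM on a log axis, with Control (NT) and KD-1 side by side. Points are libraries and bars are group means; the groups are separate for every gene but *Rara*, and *Crabp1* alone is higher in KD-1.

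To set the genes against each other, counts were divided by the length of each gene's merged exons and expressed as parts of the library's summed value, on the scale of TPM (length-scaled level). In Control the order was *Crabp2* (806 ± 40.6), *Crabp1* (57.0 ± 8.35), *Aldh1a2* (26.5 ± 1.95), *Stra6* (13.0 ± 1.19), *Rarg* (11.9 ± 1.04), *Dhrs3* (9.61 ± 0.553), *Rara* (6.22 ± 1.00), *Rarb* (4.04 ± 0.296) and *Cyp26a1* (3.46 ± 0.282). Neighbours in that order were separate over the libraries except *Stra6* with *Rarg*, and *Rarb* with *Cyp26a1*. In KD-1 the order of the length-scaled levels was *Crabp2* (399 ± 20.1), *Crabp1* (379 ± 18.8), *Rara* (7.34 ± 0.407), *Rarg* (5.59 ± 0.384), *Aldh1a2* (1.13 ± 0.343), *Rarb* (0.659 ± 0.0648), *Dhrs3* (0.465 ± 0.0771), *Cyp26a1* (0.250 ± 0.183) and *Stra6* (0.206 ± 0.0293). There *Crabp2* and *Crabp1* overlapped, as did *Cyp26a1* and *Stra6*, and with the longest transcript as the length 4 of the 9 genes took another rank. The overlaps depended on the length too. With the longest transcript, *Crabp2* (420, 454 and 461) and *Crabp1* (374, 357 and 338) were separate in KD-1, while *Rarb* and *Aldh1a2* overlapped. In Control, *Dhrs3* and *Rara* then overlapped, while *Rarb* and *Cyp26a1* were separate.

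The make-up of the binding proteins and receptors was compared within each library, which does not depend on the scaling between libraries. *Crabp1* made up 6.22%, 7.38% and 6.18% of the summed length-scaled CRABP level in Control and 51.3%, 48.2% and 46.5% in KD-1. The share was 6.59% ± 0.682 and 48.7% ± 2.43 on average (SD, n = 3), and the difference of 42.1 percentage points had p = 0.1 in the two-sided exact permutation test. With 3 libraries against 3, 0.1 is the smallest p that this test can give. The summed CRABP level itself was 863 ± 47.2 and 778 ± 10.1 (p = 0.1, exact permutation test).

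*Rara* supplied 25.8%, 30.4% and 27.7% of the summed RAR level in Control and 54.5%, 56.2% and 51.3% in KD-1. *Rarb* supplied 20.7%, 15.7% and 18.7% in Control and 4.25%, 5.38% and 4.95% in KD-1. *Rarg* supplied 53.5%, 53.9% and 53.6% in Control and 41.3%, 38.4% and 43.8% in KD-1. The largest share was thus that of *Rarg* in all Control libraries and that of *Rara* in all KD-1 libraries (p = 0.1 for each share, exact permutation test). The summed length-scaled RAR level was 22.1 ± 1.87 in Control and 13.6 ± 0.311 in KD-1 (SD, n = 3).

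For synthesis against breakdown, 1 gene of each step was taken, *Aldh1a2* and *Cyp26a1*, so that other genes of these steps are left out. By mean CPM in KD-1, *Aldh1a3* (2.63, log2 fold change -0.46, not called) lay above *Aldh1a2* (1.58). *Cyp26b1* (0.637) likewise lay above *Cyp26a1* (0.150). The log2 ratio of the length-scaled levels of *Aldh1a2* and *Cyp26a1* was 2.93, 2.92 and 2.96 in Control and 4.24, 1.92 and 1.89 in KD-1. The means were 2.94 ± 0.0225 and 2.68 ± 1.35 (p = 1, exact permutation test). The value of 4.24 rests on the single *Cyp26a1* count of the shallowest KD-1 library, and the direction of the difference (-0.25) turned to 0.13 without the middle and to 0.14 without the deepest KD-1 library. Without the shallowest KD-1 library the difference was -1.03. With 3 libraries against 3 this test cannot give a p under 0.1, and *Cyp26a1* had few counts in KD-1. Whether this ratio changed could therefore not be decided.

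**Figure D2:**
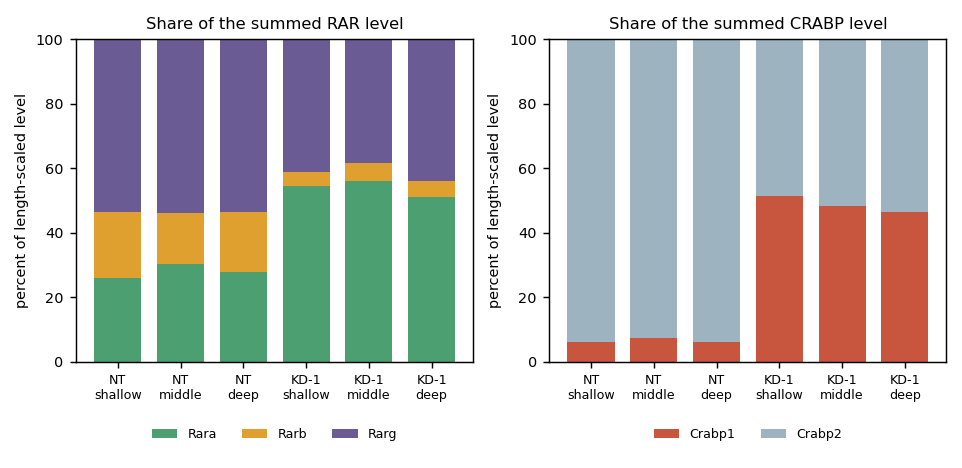
Share in percent of the summed length-scaled level that each RAR gene and each CRABP gene supplied in every library, as stacked bars from 0 to 100. *Rara* supplied 25.8 to 30.4% of the RAR level in Control and 51.3 to 56.2% in KD-1, and *Crabp1* rose from at most 7.38% to at least 46.5% of the CRABP level.

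Beyond the 9 genes, 53 other genes of the pathway were listed, of which 40 were tested, 7 rose, 7 fell and 26 were not called. The share called was 35%, near the 37.7% of all genes, 17.5% were lower against 18.1%, and the median log2 fold change was -0.10. In retinol uptake and storage 2 of 5 tested genes rose and 1 fell (60% called against 37.7% of all genes, 20% lower against 18.1%). *Lrat*, whose product esterifies retinol for storage, was at 0.165 ± 0.158 CPM in Control (7, 1 and 7 counts) and at 1.97 ± 0.112 CPM in KD-1 (78, 85 and 181 counts), with a log2 fold change of 3.78 (SE 0.49, adjusted p = 2.1e-04, edgeR) that came to 4.45 without the shallowest Control library. The cellular retinol binding protein gene *Rbp7* rose from 0.124 ± 0.0188 to 0.522 ± 0.15 CPM (log2 fold change 2.13, adjusted p = 0.0034, edgeR). *Lrat* and *Rbp7* (3, 4 and 6 counts in Control) reached the count filter only in KD-1, where they were high. *Stra6l*, a relative of *Stra6* that encodes a receptor for the retinol carrier, fell from 5.64 ± 1.30 to 2.34 ± 0.266 CPM (log2 fold change -1.27, adjusted p = 6.1e-04, edgeR).

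Of 13 tested genes for the interconversion of carotenoids, retinol, retinaldehyde and retinoic acid, 2 fell and 11 were not called. The share called, all of it lower, was 15.4%, against 37.7% called and 18.1% lower among all genes. *Rdh10*, which encodes the main embryonic retinol dehydrogenase and so the step before *Aldh1a2*, fell from 30.4 ± 2.77 to 12.7 ± 0.435 CPM (log2 fold change -1.25, SE 0.09, adjusted p = 4.6e-06, edgeR). *Bco2*, which encodes a carotenoid-cleaving oxygenase, fell from 1.92 ± 0.509 to 0.693 ± 0.151 CPM (log2 fold change -1.45, adjusted p = 0.0024, edgeR). Of the other CYP26 genes, *Cyp26b1* was tested and fell from 1.35 ± 0.221 to 0.637 ± 0.0357 CPM (log2 fold change -1.09, adjusted p = 0.006, edgeR).

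FABP5 can carry retinoic acid to the nuclear receptor PPARD. *Fabp5* was at 324 ± 26.6 and 229 ± 15.2 CPM, a log2 fold change of -0.50 that passed the p threshold (5.5e-04, edgeR) but not the fold threshold, and *Ppard* fell from 8.67 ± 1.603 to 4.53 ± 0.506 CPM (log2 fold change -0.93, adjusted p = 0.001, edgeR). Among the RXR partners, *Rxrg* rose from low counts (3, 0 and 8 in Control, 44, 25 and 84 in KD-1), with a log2 fold change of 3.11 (SE 0.66, adjusted p = 0.003, edgeR). It too reached the count filter only in KD-1, and its log2 fold change was 3.87 without the deepest Control library. *Rxra* was at 26.7 and 30.5 CPM (log2 fold change 0.19, 95% interval 0.01 to 0.38, adjusted p = 0.067, edgeR), and *Rxrb* at 33.1 and 24.8 CPM (log2 fold change -0.43, adjusted p = 0.01, edgeR), neither of them called.

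Of the 16 coregulators tested, 4 rose, 2 fell and 10 were not called, and the 37.5% called is near the 37.7% of all genes. Of those that fell, *Zfp423*, which encodes a zinc finger protein that binds the RAR and RXR pair, fell from 35.1 to 15.6 CPM (log2 fold change -1.17, adjusted p = 1.4e-05, edgeR). The coactivator genes *Kat2b*, *Ncoa3* and *Ncoa1* had log2 fold changes of 1.02, 0.69 and 0.66, and *Nsd1*, which encodes a histone methyltransferase, one of 0.71. The calls of *Ncoa1* and *Nsd1* rested on the middle Control library, without which they came to 0.47 and 0.54. In that library short genes were relatively high and long genes low (median log2 deviation from the mean of the other Control libraries 0.16 under 2000 bp and -0.08 over 6000 bp).

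**Figure D3:**
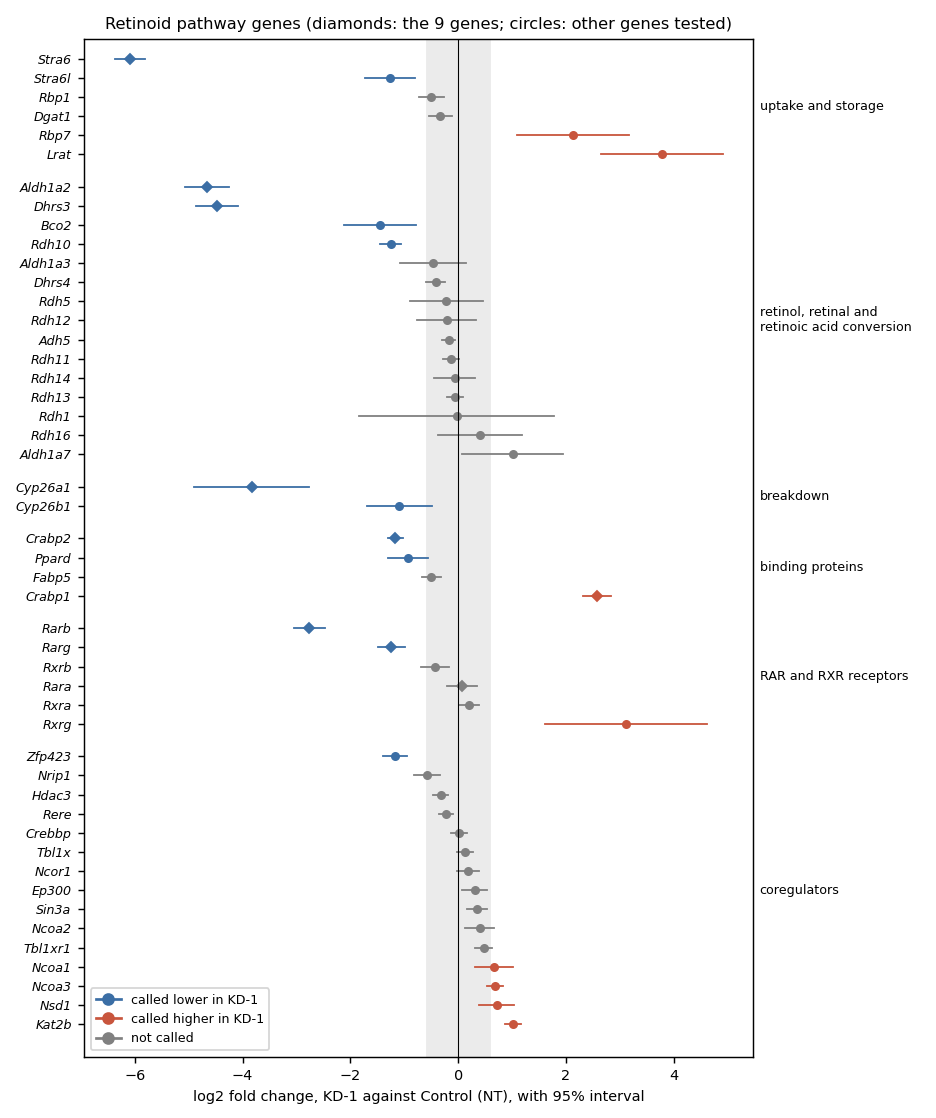
Log2 fold change, KD-1 against Control (NT), with its 95% interval, for the 9 genes (diamonds) and 39 of the 40 other tested pathway genes (circles), grouped by role. Blue and red mark genes called lower and higher, the grey band marks changes under 1.5-fold, and *Stra6*, *Aldh1a2*, *Dhrs3* and *Cyp26a1* lie left of all other genes.

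A list of 25 genes known from other settings as responsive to retinoic acid was read from the same fit. It was chosen with earlier results of these data known, so that its shares beside those of all genes are descriptions. Of 24 tested, 17 fell, 3 rose and 4 were not called, so that 83.3% were called against 37.7% of all genes, and 70.8% were lower against 18.1%. The median log2 fold change was -1.22, and 21 of the 24 had groups that did not overlap, against 70.6% of all genes tested. Of the 17 that fell, 2 reached the count filter in Control alone. The somite and pluripotency markers given above moved with the same groups, and their part in these changes was not tested.

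Among patterning genes, *Cdx1*, a caudal homeobox gene and direct target of retinoic acid, was at 5.11, 6.22 and 5.36 CPM in Control and at 0.286, 0.391 and 0.242 CPM in KD-1. It fell 18.6-fold (log2 fold change -4.22, SE 0.23, adjusted p = 1.1e-06, edgeR). Of the listed Hox genes, *Hoxb1*, *Hoxb2*, *Hoxb4* and *Hoxd4* fell, with log2 fold changes of -1.14, -1.22, -1.22 and -0.93, and *Hoxa3*, at -0.42, was not called. The Hox cofactor genes *Meis2* and *Meis1* fell by 1.41 and 0.87 on the log2 scale.

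*Foxa1*, a pioneer transcription factor gene of endoderm and floor plate, fell from 0.808 to 0.129 CPM (log2 fold change -2.57, adjusted p = 0.0014, edgeR), and it reached the count filter in Control alone. *Tgm2*, which encodes a transglutaminase induced by retinoic acid in many cell types, fell from 6.36 to 1.26 CPM (log2 fold change -2.32, adjusted p = 1.1e-05, edgeR). *Stra8* and *Rec8*, which retinoic acid induces at the entry into meiosis, fell by 2.51 and 1.64 on the log2 scale. *Pdgfra*, *Tshz1* and *Sox9* had log2 fold changes of -6.07, -1.93 and -0.82. *Isl1* had one of -1.305 (adjusted p = 0.015, edgeR), and its call was lost without the shallowest (adjusted p = 0.071, edgeR) or the deepest KD-1 library (adjusted p = 0.085, edgeR). The genes that rose were *Tfap2c* (23.3 to 49.7 CPM, log2 fold change 1.09), *Gbx2* (5.73 to 11.3 CPM, 0.98) and *Znfx1* (8.71 to 15.8 CPM, 0.86). None of the 15 response genes with a RefSeq promoter window held a DR5 match in it, where elements outside the window cannot be seen.

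**Figure D4:**
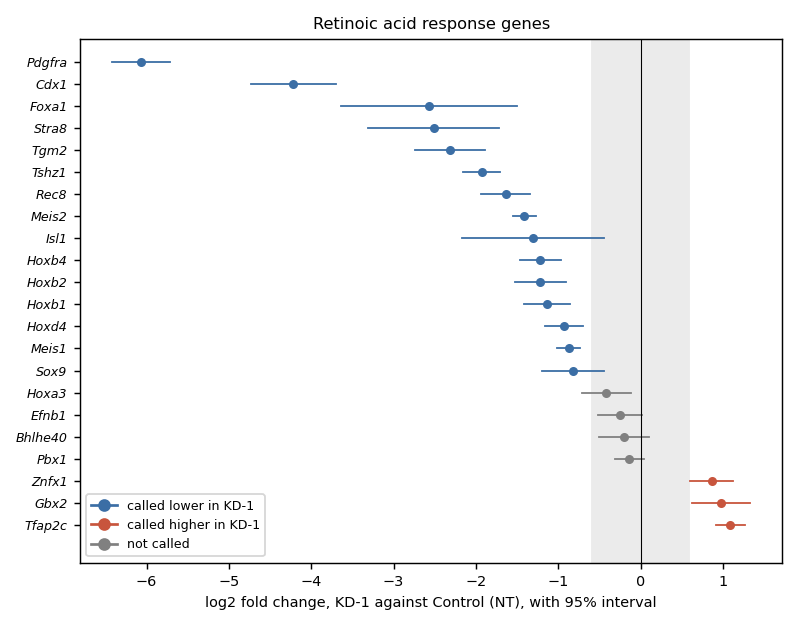
Log2 fold change, KD-1 against Control (NT), with its 95% interval, for 22 of the 24 tested retinoic acid-responsive genes, ordered by size. Blue marks 15 genes called lower, red the 3 called higher and grey those not called.

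The nearest tested protein-coding gene on each side of each member was read to see whether the changes extended along the chromosome. Of 18 neighbours 4 were higher, 3 lower and 11 not called, and the 38.9% called is near the 37.7% of all genes. Beside *Aldh1a2*, *Lipc* (263 kb away) had a log2 fold change of 1.14 and *Polr2m* (182 kb) one of -0.21. Beside *Dhrs3*, *Pramel13* (484 kb) and *Vps13d* (44.4 kb) had 0.92 and 0.12, and beside *Cyp26a1*, *Exoc6* (13.6 kb) and *Myof* (197 kb) had 0.17 and 0.07. For these genes, all of them sharply lower in KD-1, no neighbour was called lower.

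Neighbours called lower were those on both sides of *Stra6* and 1 beside *Rarg*. *Islr*, which overlaps its end, had 792, 1579 and 2187 counts in Control and 2, 0 and 0 in KD-1, at least 711-fold lower with 3 counts per library as the floor. *Ccdc33*, on its other side, had 0.561 and 0.0584 CPM (log2 fold change -3.17, adjusted p = 0.0011, edgeR). Beside *Crabp1*, the gene that rose, *Skic8* (29.4 kb) and *Ireb2* (90.6 kb) had -0.25 and 0.58. Beside *Crabp2*, *Isg20l2* (7.79 kb) and *Nes* (17.7 kb) had log2 fold changes of 0.60 and -0.44. Beside *Rarb*, *Thrb* (841 kb) had one of 1.18 (adjusted p = 0.058, edgeR) and *Top2b* one of -0.42. Beside *Rarg*, *Itgb7* (2.99 kb) and *Gm9918* (13.0 kb) had 0.21 and -1.36, the latter called lower (adjusted p = 0.042, edgeR), and beside *Rara*, *Cdc6* (3.85 kb) and *Top2a* (18.0 kb) had 0.48 and 0.68.

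**Figure D5:**
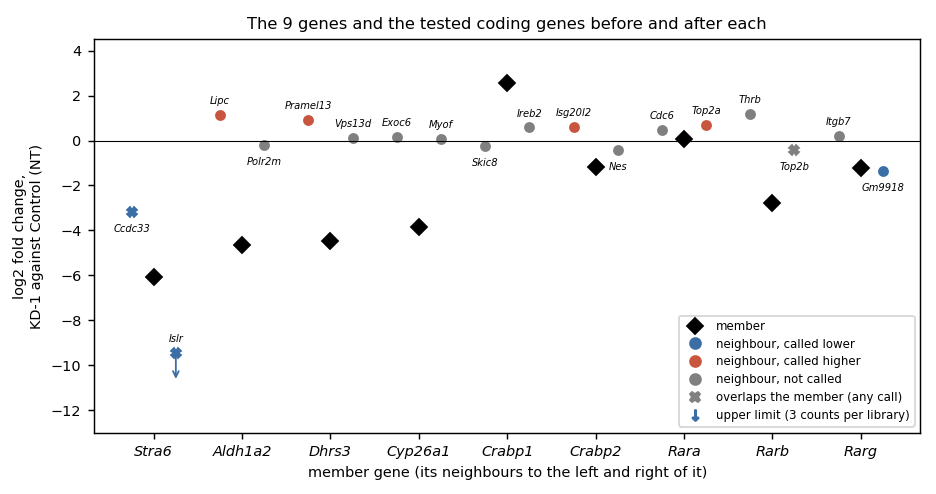
Log2 fold change, KD-1 against Control (NT), of each of the 9 genes (black diamonds) and of the nearest tested coding gene before and after it. Crosses overlap the member, colours give the call, and the arrow at *Islr* marks an upper limit; only at *Stra6* do both neighbours lie below -3.

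Of the 3 genes whose log2 CPM followed that of *Aldh1a2* most closely over the 6 libraries, *Oaf* and *Cald1* had a Pearson's r of 0.999 each. Their own log2 fold changes were -3.21 and -0.34. Since 340 genes had an r over 0.99, and all share the same 6 libraries and the same difference between groups, the likeness describes that difference and singles out no gene.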

How the data were processed

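Day-5 gastruloids were profiled by bulk RNA-seq, in 3 libraries per group. The authors ran Salmon 1.1 with a Gencode annotation and deposited expected counts per gene as whole numbers. Use of strand, and the species series of the Gencode version named, are not given in the sources used here. Columns of the table name the group only, so libraries are named by depth. The labels do not say whether they are separate cultures, whereas the study defines its n per group as independent experiments. Libraries of 1 group differed by more than sampling noise. Counts were tested with edgeR 4.0.16 (R 4.3.3; filterByExpr, TMM, robust glmQLFit and glmQLFTest, condition as the only term, Benjamini-Hochberg over 15110 genes). Ratios within libraries used exact permutation tests. Positions and exon lengths came from GENCODE vM39 (GRCm39), in which 35222 of 35565 identifiers were found, and promoters from RefSeq (GRCm38.p6). The scripts were tested on simulated data. The members and gene lists were chosen with earlier results of these data known. Named are the 9 genes, called genes of the lists, all RXR and binding protein genes tested, neighbouring genes and the 3 genes most like *Aldh1a2*, and some of these are not reported here. Alternatives were DESeq2 1.42.0, limma-voom (limma 3.58.1), other normalizations, filters and thresholds, other gene lengths and half-sites, and leaving out each library.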

Additional observations from a re-analysis of the deposited data

How the results depend on the processing

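Of the 9 genes, 8 were called under every alternative, except that with at least 10 counts in every library *Cyp26a1* was not tested and 7 were called. Over 125 values of single members, 124 kept their direction and side of the threshold. The exception was *Rara*, whose log2 fold change ran from -0.034 (without the shallowest Control library) to 0.19 when single libraries were left out. Over 513 values of 37 other genes, 509 did, and the other 4 were lost calls of *Ncoa1*, *Nsd1* and *Isl1*. With no fold threshold the called pathway genes rose to 27 (11 higher, 16 lower) and all called genes to 9597, and with an absolute log2 fold change over 1 the latter were 3274. Leaving out each library gave 14 to 16 called pathway genes and 5176 to 6113 called genes. The difference in the log2 ratio of *Aldh1a2* to *Cyp26a1* ran from -1.03 to 0.14 when single libraries were left out, and was 0.13 without the middle KD-1 library. With the longest transcript as gene length the difference in the *Crabp1* share was 38.9 percentage points, that in the summed RAR level -11.05 and that in the summed CRABP level -134. With AGGTCA as the only half-site, 0 members held a DR5 match. No paired analysis was possible because the columns carry no replicate numbers that match the sample labels. Depth limits, among others, *Cyp26a1*, *Lrat*, *Rbp7*, *Rxrg*, *Foxa1*, *Cdx1* and *Isl1*, which rest on few counts in at least 1 of the groups.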
